A study of Homo sapiens with 8 samples.

Results

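Microexons, exons of 27 nucleotides (nt) or fewer, were followed as cassette exons, that is, as middle exons that are either joined into the mRNA or skipped. They were taken from the deposited skipped-exon tables of 2 cell lines as every event whose middle exon spans 27 nt or fewer. The rule used exon length alone and no measured value. It gave 1245 of 123924 events, which are 876 of 78014 different exons, in 778 genes. The shortest was 2 nt long, 97 were of 9 nt or fewer, and 581 of the 876 were listed for both lines. At the limit itself lay 136 exons of 27 nt, and 63 exons of 28 nt fell just outside.

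The libraries came from MCF10A, breast epithelial cells that form no tumours, and from HMLE TWIST, immortalised breast epithelial cells in which a retroviral pBabe vector drives overexpression of TWIST, a transcription factor known for inducing an epithelial-mesenchymal transition. Cells of each line were treated for 24 hours, with emetine at 10 µM or with DMSO, its solvent. Emetine is a plant alkaloid known as an inhibitor of translation elongation. There were 4 groups of 2 libraries, which the series text calls biological replicates. Both lines are established cultures, so the p-values below measure the spread between cultures of 1 line each. The series concerns small molecules that act on alternative splicing through RNA G-quadruplexes, structures that form in guanine-rich RNA.

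Microexons are too short to hold the usual number of exonic enhancer sequences, and their recognition is known to lean on the flanking introns. The best studied set is switched on in neurons by SRRM4 with its relative SRRM3, aided by RNPS1 and SRSF11, and is held back in other tissues by PTBP1. RBFOX, MBNL and QKI proteins, and the epithelial factors ESRP1 and ESRP2, are known to act on others. Many microexons keep the reading frame and add a few residues to the surface of proteins of the cytoskeleton, of vesicle transport and of cell adhesion.

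The sequences of the members on which the results turn are printed first, to show how little RNA is at stake and which members resemble each other. Each line gives the microexon in capitals between the last 12 and the first 12 coding bases of its neighbours in lower case, 5′ to 3′, from GENCODE 29 transcripts. The exons were found there by gene, exon length and the lengths of both introns, because the deposited coordinates, on GRCh37, are not those of that release. PTK2 is named below without its sequence.
CYTH1 (chr17:76692089-76692091, minus strand, 3 nt): tattgaaactcgGAGgtggcagggtaa
NAV2 (chr11:20104138-20104146, plus strand, 9 nt): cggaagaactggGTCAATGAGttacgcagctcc
MAP4K4 (chr2:102484491-102484499, plus strand, 9 nt): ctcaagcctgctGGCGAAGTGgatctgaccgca
TEAD1 (chr11:12900436-12900447, plus strand, 12 nt): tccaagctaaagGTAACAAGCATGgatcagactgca
DNM2 (chr19:10919245-10919256, plus strand, 12 nt): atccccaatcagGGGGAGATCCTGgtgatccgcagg
MACF1 (chr1:39930767-39930784, plus strand, 18 nt): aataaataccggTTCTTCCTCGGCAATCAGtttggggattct
DST (chr6:56333780-56333797, minus strand, 18 nt): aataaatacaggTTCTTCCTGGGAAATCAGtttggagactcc
SENP6, short form (chr6:76350403-76350420, plus strand, 18 nt): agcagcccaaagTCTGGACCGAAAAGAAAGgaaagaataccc
SENP6, long form (chr6:76350400-76350420, plus strand, 21 nt): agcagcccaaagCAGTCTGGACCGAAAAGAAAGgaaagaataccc
MLLT4 (chr6:168314083-168314103, plus strand, 21 nt): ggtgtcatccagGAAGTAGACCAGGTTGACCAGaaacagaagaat
PHACTR4 (chr1:28784343-28784366, plus strand, 24 nt): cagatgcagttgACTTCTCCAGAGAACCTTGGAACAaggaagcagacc
PICALM (chr11:85689113-85689136, minus strand, 24 nt): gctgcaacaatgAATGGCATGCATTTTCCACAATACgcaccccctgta
RAPGEF2 (chr4:160265188-160265211, plus strand, 24 nt): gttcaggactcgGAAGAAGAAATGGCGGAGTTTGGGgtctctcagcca
RAPGEF6 (chr5:130785716-130785739, minus strand, 24 nt): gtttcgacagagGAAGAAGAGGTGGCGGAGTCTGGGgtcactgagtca

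A search of the tested members of 12 nt or more with a sequence for pairs in different genes that differ at 3 positions or fewer found 3 pairs. The MACF1 and DST microexons, in 2 genes of the spectraplakin family that link actin to microtubules, were identical at 16 of 18 positions, and differed from MACF1 to DST by C9G and C12A, counted from 1 at the 5′ end of the microexon. With the flanking bases, 36 of 42 positions were the same, so 6 positions separate the reads of the 2 genes within this stretch. RAPGEF6 and RAPGEF2, exchange factors for Rap GTPases, shared 21 of 24 positions and differed by G9A, G10A and C20T from RAPGEF6 to RAPGEF2. The other pair was DNM2 with a 12-nt microexon of DNM1, which shared 9 of 12 positions. The forms of SENP6 end at the same base and begin 3 nt apart, so their skipping reads are shared and they are not independent members.

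Every library held between 78412292 and 91259363 junction reads over all events, of which 485247 to 544196 came from microexon events. An inclusion level is the share of the inclusion form after each form's junction reads are divided by its effective length, on a scale from 0 to 1. It was analysed where every library of a line had at least 20 reads of the event, which held for 567 of the 712 microexons listed in MCF10A and for 587 of 745 in HMLE TWIST. The median depth per library was then 228 to 330 reads. A test also needed 10 reads of the rarer form over the libraries compared, which left 330 microexons in MCF10A and 351 in HMLE TWIST. Of the listed members without a test, 145 in MCF10A and 158 in HMLE TWIST had too few reads, and 237 and 236 were nearly always included or nearly always skipped. The counts of tests and calls below do not speak of them. The untreated levels below include those nearly always included or skipped, and the counts of frame and annotation include all members. In bulk RNA fewer cells of a type and less RNA per cell cannot be told apart. Over all tests 438 microexons were tested at least once. Between the libraries of a group the level of a tested microexon differed by a median of 0.00883 to 0.0144.

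Marker genes were checked by the reads of their deepest skipped-exon event. Of 8 epithelial markers 5 had an event, and their summed reads were 56594 and 58494 in untreated MCF10A against 2 and 5 in untreated HMLE TWIST, where CDH1 had 2 and 0 reads, ESRP1 0 and 2, and ESRP2 0 and 3. All 9 mesenchymal markers had an event in at least 1 line. Their summed reads were 26850 and 30184 in untreated MCF10A and 312869 and 298405 in untreated HMLE TWIST. Of the latter, VIM gave 190386 and 181765 and FN1 94246 and 83048. The sums also moved with emetine: in MCF10A those of the epithelial list were 33607 and 32505 and those of the mesenchymal list 6545 and 7077, and in HMLE TWIST they were 19 and 12, and 190514 and 166741. The part of these shifts in the microexon changes was not tested. KRT5 and KRT14 had no listed event in HMLE TWIST, and CDH2 and COL5A1 had none in MCF10A. Such a gene entered the sum of that line as 0. KRT5 alone gave 52490 and 54251 of the epithelial reads in untreated MCF10A, so the sums rest largely on it. The label of breast epithelial cells in HMLE TWIST thus stands beside the near absence of reads from CDH1, ESRP1 and ESRP2.

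Most members were of a length that keeps the reading frame. Of the 876 microexons 521 (59.5%) had a length divisible by 3, against 38.9% of 4077 exons of 28 to 50 nt and 38.3% of longer ones. The share was 70.1% of the 97 members up to 9 nt, 75.4% of the 126 of 10 to 15 nt, 58% of the 224 of 16 to 21 nt and 53.1% of the 429 of 22 to 27 nt. By annotation 658 members lay wholly in coding sequence, 48 in 5′ and 13 in 3′ untranslated regions, 32 at the edge of a coding region and 76 in noncoding transcripts, and 49 were not matched. Among members divisible by 3, inclusion and skipping were each found in a protein-coding transcript for 319 of 521, and among the others for 59 of 355. Of 266 tested coding members with an annotated frame, 1, in SEPW1, held an in-frame TGA, past which its annotated coding sequence reads on. Only exons wholly inside the coding sequence of a protein-coding transcript were read so. The annotation thus all but excludes a stop codon beforehand. The final 2 bases were AG in 55.4% of 392 tested members with a sequence, a value of 53.9% in exons of 28 to 50 nt, and the median GC content was 46.7% against 46.5%. Their introns were shorter than those of other exons, with medians of 1532 nt before and 1286 nt after the microexon, against 2134 and 2016 nt over all exons tested.

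In untreated cells most microexons lay near full skipping or near full inclusion, and 17.3% in MCF10A and 19.1% in HMLE TWIST lay between 0.1 and 0.9. Most exons of any length lay near full inclusion. The median level was 0.682 over 567 microexons in MCF10A and 0.773 over 587 in HMLE TWIST, against 0.995 over all exons in both lines. A level of at least 0.9 was held by 44.8% of them in MCF10A and 45.5% in HMLE TWIST, and a level of at most 0.1 by 37.9% and 35.4%. Over all exons, 78.8% and 80.4% were at 0.9 or higher, and of exons of 28 to 50 nt 66.7% and 68.4%. Frame divided the members: those divisible by 3 had a median level of 0.202 in MCF10A and 0.313 in HMLE TWIST. The others had medians of 0.987 and 0.975, near the 0.989 of exons of 28 to 50 nt in both lines. An intermediate level between 0.1 and 0.9 was found for 23.8% and 26% of the members divisible by 3, and for 7.21% and 8.58% of the rest.

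Under emetine in MCF10A, most microexons that were called had a lower level. A microexon is called changed here where the adjusted p of the quasi-binomial model of inclusion against skipping reads was under 0.05 and the mean level moved by at least 0.1. Of 330 tested, 67 were called, 14 higher and 53 lower, or 20.3%. Over all exons tested 12.9% were called, 7.65% higher and 5.22% lower, so the balance was the other way round: 79.1% of the calls of microexons were downwards, 57% of those of exons of 28 to 50 nt and 40.5% of those of all exons. The median change over the 330 was -0.00472, and the quartiles were -0.0554 and 0.0142. limma on the log2 odds of inclusion called 35 of the 330 (10.6%), where it called 7.81% of all exons. Without either emetine library the model called 0, and 52 or 50 had an unadjusted p under 0.05 with a change of at least 0.1. With a single dispersion shared by all events, an alternative added after seeing the data, those fits called 58 and 64, and the full fit 67.

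In HMLE TWIST 70 of 351 microexons were called (19.9%), 24 higher and 46 lower, and 65.7% of the calls were downwards, a share of 64.2% in exons of 28 to 50 nt and of 58.1% over all exons. Over all exons 13.8% were called, 5.76% higher and 7.99% lower. limma called 37 of the 351 (10.5%), where it called 9.68% of all exons. Without either emetine library the quasi-binomial model again called 0, with 51 or 50 at an unadjusted p under 0.05 and the same size, and 68 and 74 with the shared dispersion.

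**Figure D1:**
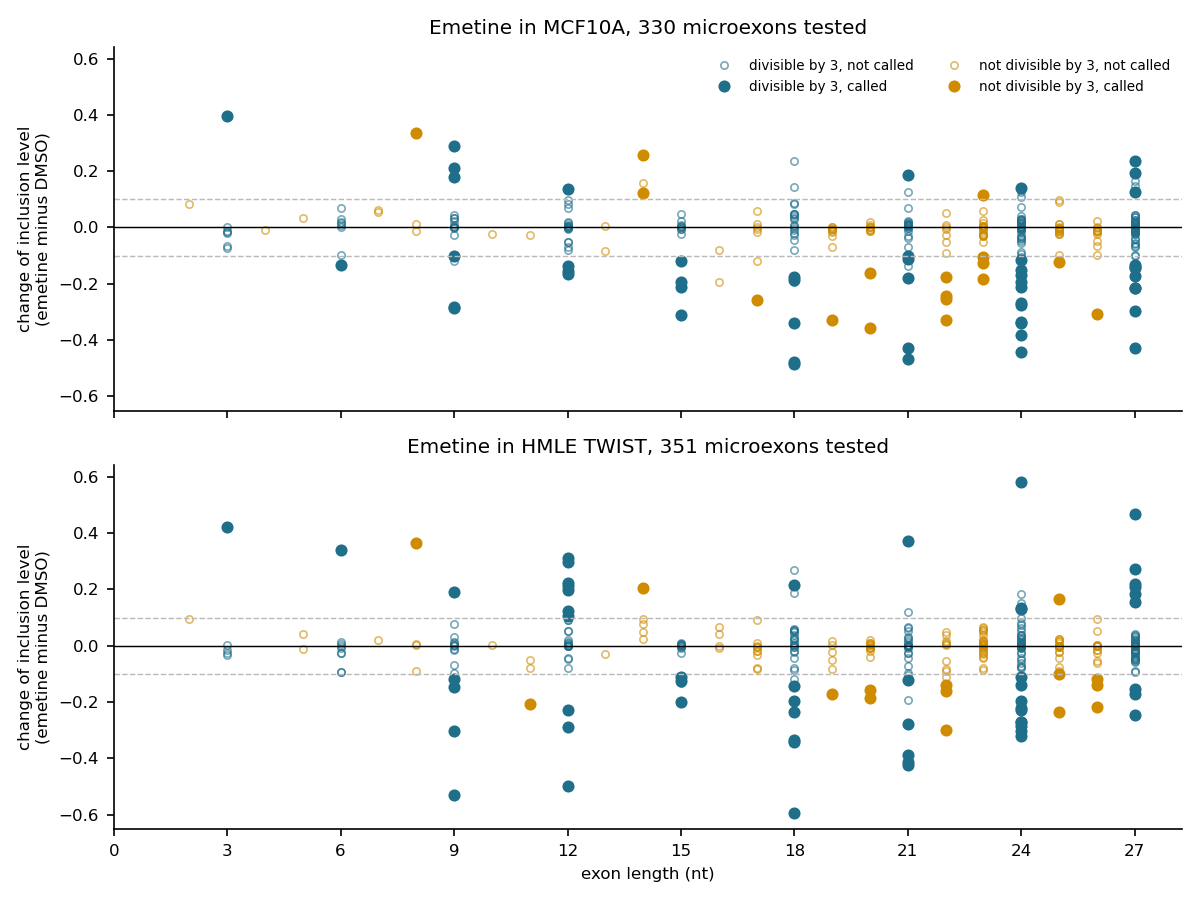
Change of the inclusion level (emetine minus DMSO, mean of 2 libraries each) against exon length in nt for every tested microexon of MCF10A (top) and HMLE TWIST (bottom), with filled points for called exons and colour for the frame; dashed lines mark a change of 0.1. In MCF10A 53 of the 67 filled points lie below 0 and in HMLE TWIST 46 of 70; 50 and 55 of the filled points have a length divisible by 3.

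In MCF10A the order of the calls by frame depended on the test. By the quasi-binomial model 50 of 218 such microexons (22.9%) were called, 10 higher and 40 lower, and 17 of 112 others (15.2%), 4 higher and 13 lower. In HMLE TWIST the counts were 55 of 223 (24.7%; 21 higher, 34 lower) and 15 of 128 (11.7%; 3 higher, 12 lower). limma called 22 of 218 (10.1%) against 13 of 112 (11.6%) in MCF10A, the opposite order, and 25 of 223 (11.2%) against 12 of 128 (9.38%) in HMLE TWIST. Of exons of 28 to 50 nt, by the quasi-binomial model, 14.5% of those divisible by 3 and 15.2% of the others were called in MCF10A, and 12.4% and 17.6% in HMLE TWIST. The classes differ in untreated level, with medians of 0.285 and 0.922 among the tested members of MCF10A, and the part of that level in the difference was not tested. Among members whose 2 forms are both annotated as protein-coding, 48 of 191 were called in MCF10A and 49 of 193 in HMLE TWIST. Where only the skipping form is, 4 of 42 and 3 of 44 were, and where only the inclusion form is and skipping was found in another kind of transcript, 5 of 22 and 4 of 18. Where inclusion is and skipping was found in no transcript, 5 of 54 and 9 of 65 were called. Over all exons tested 12.9% and 13.8% were. These classes also differ in median untreated level, in MCF10A and HMLE TWIST. It was 0.238 and 0.255 where both forms are protein-coding, and 0.0107 and 0.00777 where only skipping is. In the last 2 classes it was 0.959 and 0.939, and 0.990 and 0.986. The part of that level in these counts was not tested.

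By length, the called share in MCF10A was 22% of 41 members up to 9 nt, 23.8% of 42 of 10 to 15 nt, 18.5% of 81 of 16 to 21 nt and 19.9% of 166 of 22 to 27 nt. In HMLE TWIST it was 21.1% of 38, 29.4% of 51, 17.4% of 92 and 18.2% of 170. The balance of directions also differed by length, which was not tested. In MCF10A the shortest class had 5 rises and 4 falls, while the class of 22 to 27 nt had 5 and 28. In HMLE TWIST the rises and falls were 4 and 4 up to 9 nt, 8 and 7 from 10 to 15 nt, 2 and 14 from 16 to 21 nt, and 10 and 21 from 22 to 27 nt. Just at the limit, 3 of 54 tested exons of 27 nt rose and 8 fell in MCF10A, and of 19 exons of 28 nt 2 rose and 4 fell. In HMLE TWIST 6 of 44 exons of 27 nt rose and 3 fell, and of 21 exons of 28 nt 0 rose and 4 fell.

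An exon's room to move depends on where it starts, so calls were also counted within classes of the untreated level. Of 56 microexons at 0.2 to 0.8 in MCF10A, 24 fell (42.9%) and 5 rose (8.93%), whereas of 2469 exons of any length at such levels 11.1% fell and 25.6% rose. In HMLE TWIST 26 of 65 fell (40%) and 13 rose (20%), against 16.5% and 24.5% of 2600 exons. Under 0.2 the order was kept: 7 of 139 microexons rose in MCF10A (5.04%), against 16.8% of all exons. At 0.8 or more 18.5% of 135 microexons fell in MCF10A, against 6.2% of all exons. In HMLE TWIST 12.4% of 145 fell, against 8.96%. Of exons of 28 to 50 nt at that level, 10.7% fell in MCF10A and 11.3% in HMLE TWIST, the latter near the share of microexons. At 0.2 to 0.8, 18.9% of that length class fell and 17.9% rose in MCF10A, and 20.1% fell and 17.7% rose in HMLE TWIST. Under 0.2, 11.7% of it rose in MCF10A. The untreated libraries enter both the class and the change, and no test was made of these shares.

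**Figure D2:**
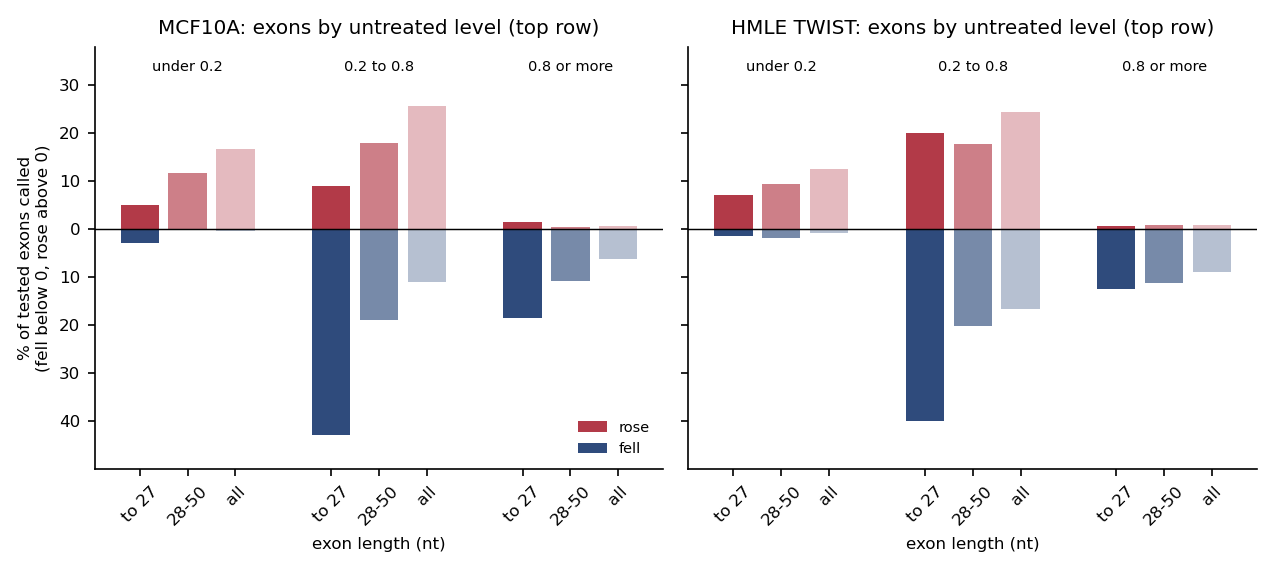
Share of tested exons called under emetine, in percent, with rises above 0 and falls below 0, for microexons, exons of 28 to 50 nt and all exons, in 3 classes of the untreated inclusion level (named at the top of each panel). In the class of 0.2 to 0.8 falls reach 42.9% of microexons in MCF10A and 40% in HMLE TWIST. They reach 18.9% and 20.1% of exons of 28 to 50 nt, and 11.1% and 16.5% of all exons.

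The largest changes are described by what the proteins do, beginning with the cytoskeleton and its junctions. The MACF1 microexon had levels of 0.641 and 0.649 in untreated MCF10A and 0.168 and 0.164 under emetine, a change of -0.479 (adjusted p = 1.93e-07; limma 0.0156). In HMLE TWIST it went from 0.243 and 0.218 to 0.0228 and 0.0435 (adjusted p = 0.000318; limma 0.0191). The near-identical microexon of DST, encoding dystonin, was at 1 and 1 in untreated MCF10A and 0.834 and 0.817 under emetine, a change of -0.175 (adjusted p = 0.000288; limma 0.0145). In HMLE TWIST it went from 0.921 and 0.927 to 0.269 and 0.393, a change of -0.593 (adjusted p = 3.77e-05; limma 0.0113). In all 4 of these comparisons the groups did not overlap, which is likely beforehand for a called exon with 2 libraries in a group and adds no support. MLLT4, which encodes afadin, a protein that ties nectins of adherens junctions to actin, fell from 0.588 and 0.623 to 0.169 and 0.186 in MCF10A and from 0.69 and 0.625 to 0.24 and 0.297 in HMLE TWIST (adjusted p = 7.5e-07 and 0.000735). PHACTR4, a regulator of actin and protein phosphatase, fell from 0.454 and 0.459 to 0.0739 and 0.0743 in MCF10A. Its untreated HMLE TWIST libraries lay apart, at 0.469 and 0.231, with 0.0378 and 0.0938 under emetine (adjusted p = 0.00755; limma 0.0514).

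The formins, which nucleate actin filaments, moved in both directions. DIAPH2 rose from 0.663 and 0.656 to 0.861 and 0.831 in MCF10A (adjusted p = 0.017; limma 0.0649) and from 0.4 and 0.581 to 0.888 and 0.833 in HMLE TWIST (adjusted p = 0.00936; limma 0.0342). DIAPH1 fell in MCF10A, from 0.974 and 0.983 to 0.764 and 0.765, and stood at 0.972 and 0.965 untreated and 0.925 and 0.963 under emetine in HMLE TWIST, where it was not called (adjusted p = 0.247). Of the motor proteins, the 21-nt exon of the kinesin KIF21A fell in HMLE TWIST from 0.789 and 0.785 to 0.424 and 0.306, where the shallowest library held 22 reads (adjusted p = 0.0168; limma 0.0233). The 9-nt exon of the myosin MYO5A fell in both lines, from 0.89 and 0.839 to 0.408 and 0.749 in MCF10A and from 0.581 and 0.658 to 0.394 and 0.239 in HMLE TWIST. The emetine libraries of MCF10A differed widely for MYO5A, and limma's adjusted p was 0.131 there and 0.07 in HMLE TWIST. The 9-nt exon of MTSS1L, a protein that bends membranes and binds actin, fell in both as well, from 0.699 and 0.759 to 0.379 and 0.511 in MCF10A and from 0.389 and 0.474 to 0.296 and 0.274 in HMLE TWIST (limma 0.0688 and 0.181).

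Among proteins of clathrin coats and vesicle transport, PICALM, a clathrin assembly protein, fell from 0.858 and 0.898 to 0.418 and 0.452 in MCF10A (adjusted p = 2.44e-07; limma 0.0177) and from 0.596 and 0.62 to 0.362 and 0.315 in HMLE TWIST (adjusted p = 0.000115; limma 0.0517). AP2M1 encodes the medium subunit of the endocytic adaptor AP-2. Its 6-nt exon fell from 0.754 and 0.769 to 0.593 and 0.662 in MCF10A, read at least 4109 times in every library (adjusted p = 9.97e-05; limma 0.179). The subunits of AP-1, the adaptor of the trans-Golgi network, showed smaller falls: AP1G1 went from 0.147 and 0.196 to 0.0767 and 0.0652 in MCF10A (limma adjusted p 0.0801) and AP1B1 from 0.329 and 0.304 to 0.205 and 0.194 in HMLE TWIST (limma 0.17). The 18-nt exon of TRAPPC13, a subunit of the TRAPP tethering complex, went from 0.901 and 0.677 to 0.475 and 0.419 in HMLE TWIST (adjusted p = 0.0095; limma 0.0881). In MCF10A it fell from 0.947 and 0.905 to 0.758 and 0.717 (adjusted p = 0.00143; limma 0.0465). SNX14, a sorting nexin, rose from 0.18 and 0.166 to 0.374 and 0.361 in MCF10A (adjusted p = 6.94e-05; limma 0.0621). Of these vesicle-transport results, PICALM and TRAPPC13 in MCF10A passed both tests.

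Signalling proteins and receptors were among the largest rises. CYTH1 encodes cytohesin-1, an exchange factor for ARF GTPases, and its 3-nt microexon is known to set which phosphoinositide its pleckstrin homology domain prefers. It rose from 0.261 and 0.277 to 0.715 and 0.618 in MCF10A (adjusted p = 0.000236; limma 0.0294) and from 0.141 and 0.152 to 0.505 and 0.635 in HMLE TWIST (adjusted p = 0.00102; limma 0.0188). No untreated library of either line reached the lowest emetine library, which the choice of CYTH1 for its large rise makes likely. MAP4K4, a Ste20-like kinase that acts upstream of JNK, rose from 0.174 and 0.159 to 0.364 and 0.395 in MCF10A and from 0.351 and 0.357 to 0.554 and 0.536 in HMLE TWIST (adjusted p = 7.54e-07 and 0.000199), but limma gave 0.0525 and 0.107. TTC28 rose in HMLE TWIST from 0.206 and 0.101 to 0.757 and 0.714 (adjusted p = 0.00173; limma 0.0147). ROBO1, a receptor for SLIT ligands, went there from 0.388 and 0.198 to 0.735 and 0.79, where the shallowest library held 21 reads (adjusted p = 0.0168; limma 0.0305). ROS1, a receptor tyrosine kinase, rose in MCF10A from 0.669 and 0.647 to 0.943 and 0.844 (adjusted p = 0.0173; limma 0.0736), and PTPRS, a receptor tyrosine phosphatase, in HMLE TWIST from 0.407 and 0.616 to 0.789 and 0.828 (adjusted p = 0.049; limma 0.0701).

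Several of the called microexons lie in nuclear proteins. The short form of SENP6, a protease that removes SUMO chains, fell from 0.604 and 0.748 to 0.131 and 0.248 in MCF10A and from 0.638 and 0.542 to 0.197 and 0.31 in HMLE TWIST (adjusted p = 8.57e-05 and 0.00276; limma 0.0333 and 0.0469). Its long form went from 0.646 and 0.674 to 0.16 and 0.224 in MCF10A and from 0.62 and 0.454 to 0.243 and 0.276 in HMLE TWIST (limma 0.0199 and 0.0711). TEAD1 is the DNA-binding partner of YAP and TAZ. Its 12-nt microexon fell from 0.718 and 0.737 to 0.189 and 0.269 in HMLE TWIST (adjusted p = 0.000164; limma 0.0155), and from 0.243 and 0.0578 to 0.00838 and 0.0205 in MCF10A, where limma gave 0.0729 and the libraries under DMSO lay farther from each other than the lower of them from emetine. BAZ2B, a bromodomain protein, fell in MCF10A from 0.379 and 0.578 to 0.0552 and 0.0452 (limma adjusted p 0.0181), and SUV420H2, a histone methyltransferase, from 0.98 and 0.99 to 0.707 and 0.548 (limma 0.0149). SNRNP48 encodes a protein of the minor spliceosome. Its 8-nt exon, whose inclusion is annotated in no protein-coding transcript, rose from 0.125 and 0.0497 to 0.452 and 0.394 in MCF10A and from 0.0521 and 0.13 to 0.468 and 0.44 in HMLE TWIST (limma adjusted p 0.0363 and 0.0265).

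Other called exons lie in enzymes and in 5′ untranslated regions. The 24-nt exon of ACACA, acetyl-CoA carboxylase, could not be matched to a transcript and fell from 0.851 and 0.845 to 0.601 and 0.426 in MCF10A and from 0.574 and 0.558 to 0.257 and 0.236 in HMLE TWIST (limma adjusted p 0.0404 and 0.0308). SUCO, a protein of the endoplasmic reticulum membrane, fell from 0.864 and 0.846 to 0.505 and 0.382 in HMLE TWIST (limma 0.0194). The 6-nt exon of MGAT5B, a glycosyltransferase, rose there from 0.208 and 0.256 to 0.582 and 0.56 (limma 0.0291). WARS encodes tryptophanyl-tRNA synthetase, and a 14-nt exon of its 5′ untranslated region rose from 0.0145 and 0.0296 to 0.303 and 0.254 in MCF10A (adjusted p = 0.000132; limma 0.0158). A 12-nt exon in the 5′ untranslated region of TREX1, a DNA exonuclease, went from 0 and 0.114 to 0.429 and 0.31 in HMLE TWIST (adjusted p = 0.0212; limma 0.0729). A 9-nt exon of the collagen gene COL4A5, not matched to a GENCODE 29 transcript, rose from 0.128 and 0.0635 to 0.252 and 0.297 in MCF10A (adjusted p = 0.00363; limma 0.0731).

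**Figure D3:**
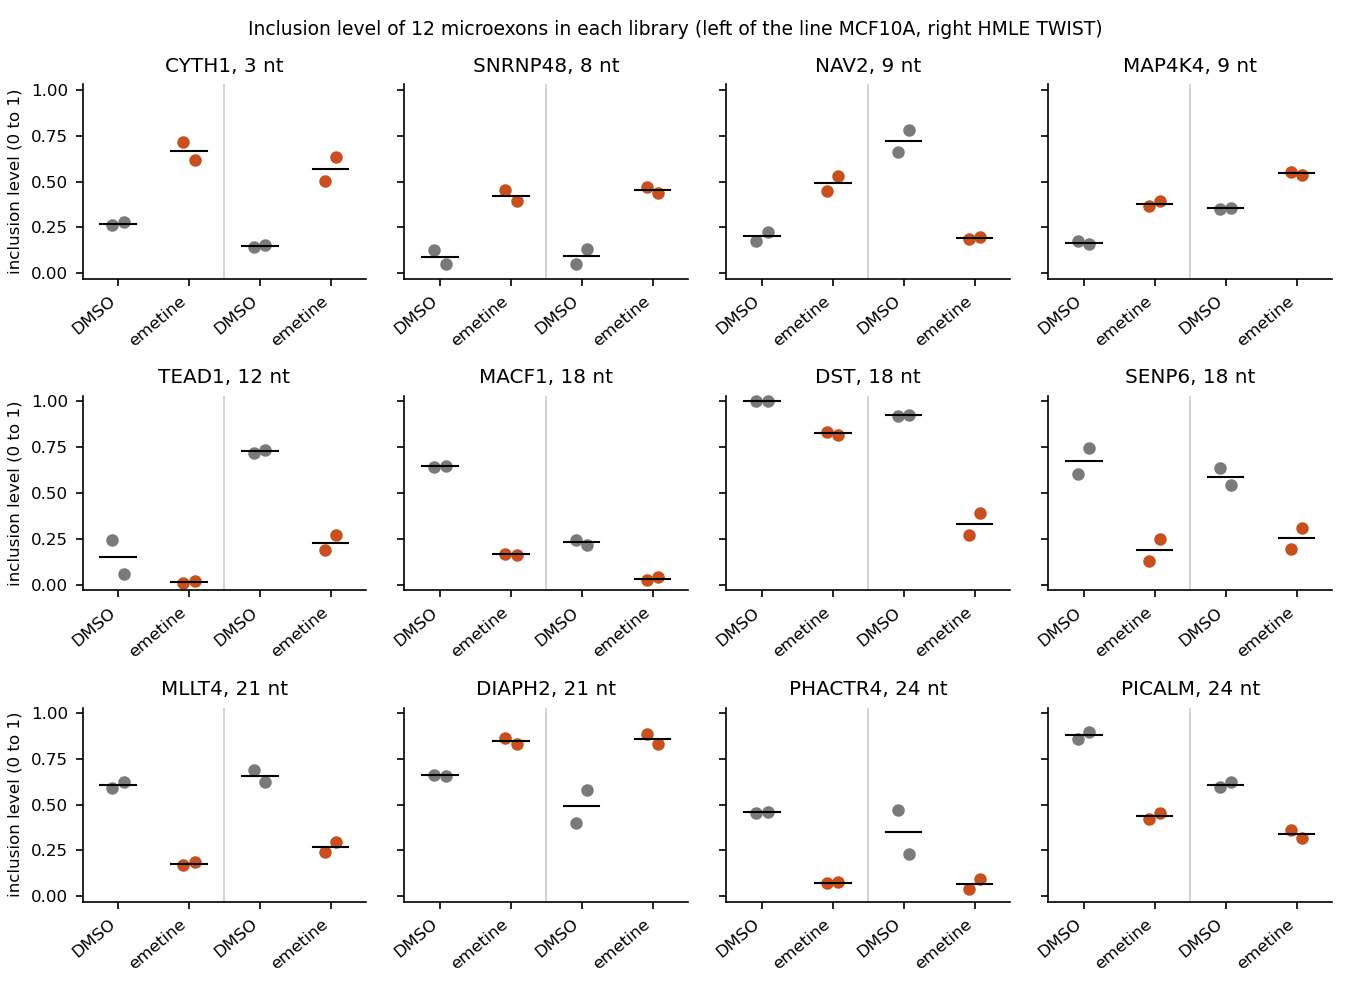
Inclusion level (0 to 1) of 12 microexons in each of the 8 libraries, with grey points for DMSO, orange points for emetine and a bar for the mean of 2; MCF10A stands left and HMLE TWIST right of the vertical line. CYTH1, SNRNP48, MAP4K4 and DIAPH2 are higher under emetine in both lines, NAV2 moves in opposite directions, and the other 7 are lower.

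The overlap of the lines was counted over microexons tested in both, which left out 8 of those called in MCF10A and 10 of those called in HMLE TWIST. Of 268, 59 were called in MCF10A and 60 in HMLE TWIST, and 37 in both, which is 62.7% of the former and 61.7% of the latter. Over all exons tested in both lines the shares were 59.4% and 49.9%, the former close to that of microexons. Of the 37, 8 rose in both lines, 27 fell in both and 2, NAV2 and ROBO3, had opposite directions. Over all exons called in both lines, 1469 of 1481 had the same direction. Of microexons called in MCF10A alone, 19 of 22 had the same sign in HMLE TWIST, and of those called in HMLE TWIST alone 18 of 23. Among exons called in either line, 72 of 82 microexons and 3595 of 3981 exons of any length had the same sign. A shared sign was thus not particular to microexons. The 2 comparisons share no library.

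**Figure D4:**
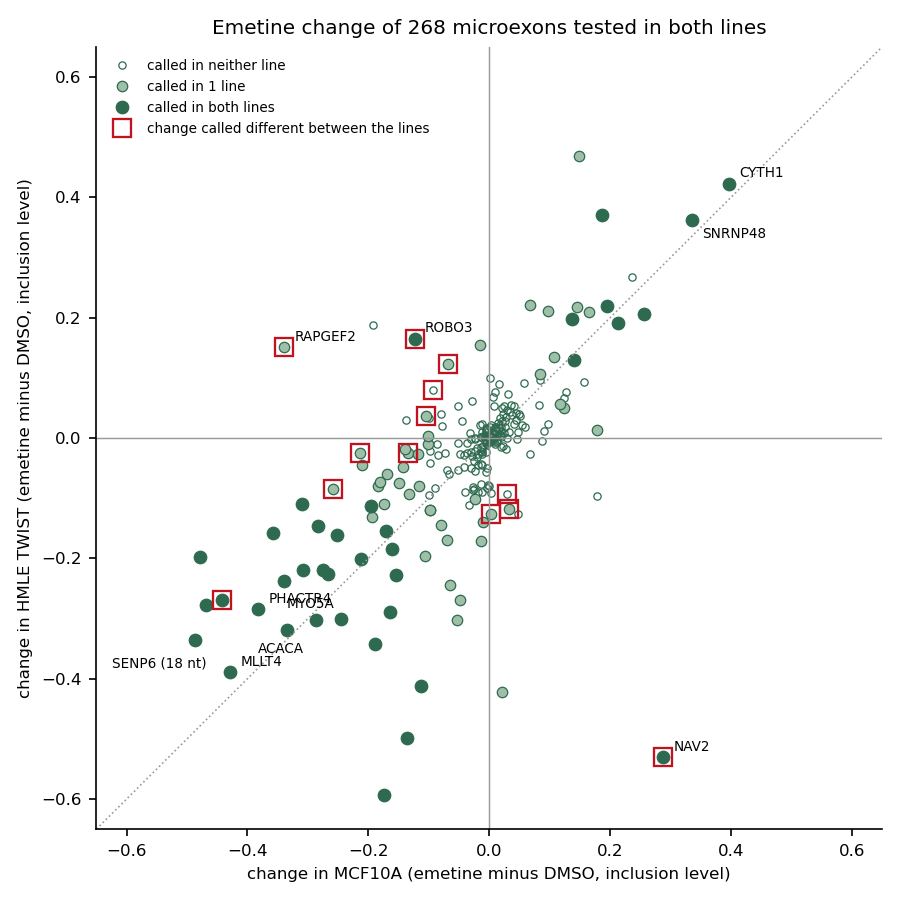
Change of the inclusion level under emetine in MCF10A (x axis) and in HMLE TWIST (y axis) for the 268 microexons tested in both lines; filled points were called in 1 line or in both, and red squares mark exons whose change was called different between the lines. The dark points fill the lower left (27 exons) and upper right (8), and NAV2, at 0.288 and -0.531, lies farthest to the lower right.

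Whether a change differed between the lines was tested in 1 fit of the 8 libraries, by its interaction term. Of 360 microexons 13 were called, where 1.62% of all exons were: the change was higher in HMLE TWIST for 9 and lower for 4. The median level in untreated MCF10A was 0.878 over these 9 and 0.0627 over these 4, and an exon near 0 has little room to fall. The part of the starting level in these differences was not tested. limma called 0 of the 360 and 0% of all exons, with 16 at an unadjusted p under 0.05 and a difference of at least 0.1, and the quasi-binomial model called 8 and 8 without the first or second untreated MCF10A library, 4 and 6 without its emetine libraries, 9 and 8 without an untreated HMLE TWIST library and 7 and 5 without an emetine one. NAV2, a cytoskeletal protein known from neurite outgrowth, differed most. Its 9-nt microexon rose from 0.177 and 0.226 to 0.45 and 0.53 in MCF10A and fell from 0.659 and 0.783 to 0.186 and 0.195 in HMLE TWIST (adjusted p = 4.26e-05 and 0.000352; limma 0.0457 and 0.0152). The difference of its changes was -0.819 (adjusted p = 5.7e-09; limma 0.197). RAPGEF2 fell in MCF10A from 0.687 and 0.49 to 0.35 and 0.147 and stood at 0.441 and 0.539 untreated and 0.674 and 0.608 under emetine in HMLE TWIST, a difference of 0.491 (adjusted p = 0.00977; limma 0.299). The microexon of its relative RAPGEF6, named for its sequence, stood at 0.0456 and 0.0456 in untreated MCF10A and 0.109 and 0.185 in untreated HMLE TWIST, and was called in neither line. The exon of DNM2, which encodes dynamin 2, the GTPase that cuts vesicles from the membrane, was at 0.938 and 0.926 untreated and 0.871 and 0.857 under emetine in MCF10A and rose from 0.245 and 0.236 to 0.386 and 0.343 in HMLE TWIST (difference 0.192, adjusted p = 1.51e-06; limma 0.295). A 25-nt exon of ROBO3, annotated as noncoding, went from 0.583 and 0.625 to 0.513 and 0.448 in MCF10A and from 0.278 and 0.177 to 0.417 and 0.369 in HMLE TWIST (difference 0.289, adjusted p = 0.00287; limma 0.344). UCKL1, a relative of uridine kinases, fell from 0.953 and 0.96 to 0.64 and 0.756 in MCF10A and went from 0.881 and 0.866 to 0.778 and 0.799 in HMLE TWIST.

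Between the untreated lines microexons differed about as often upwards as downwards. Of 277 tested 46 were called (16.6%), 20 higher and 26 lower in HMLE TWIST. Over all exons 6.04% were called, 2.04% higher and 4% lower. Of the 46, 40 had a length divisible by 3, out of 188 (21.3%), and 6 did not, out of 89 (6.74%). The order was the same in longer exons. Of those of 28 to 50 nt, 12.6% divisible by 3 and 8.63% of the others were called, and over 50 nt 6.37% and 4.89%. The median levels of the 188 and the 89 in untreated MCF10A were 0.300 and 0.889, and their part in the difference was not tested. limma called 4 of the 277, DNM2, USO1, KIF21A and ABI1, and the quasi-binomial model called 28 without the first untreated HMLE TWIST library and 37 with the shared dispersion. limma called 0.167% of all exons in this comparison. The quasi-binomial model's very small p-values for deeply read exons rest on a spread pooled over all events and should be read beside limma's. Line and any handling that went with it cannot be told apart.

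The exons lower in HMLE TWIST were led by DNM2, at 0.938 and 0.926 in MCF10A and 0.245 and 0.236 in HMLE TWIST (adjusted p = 3.03e-56; limma 0.0433). USO1 encodes the Golgi tether p115, and its 21-nt exon was at 0.568 and 0.626 in MCF10A and nearly always skipped in HMLE TWIST, at 0.00739 and 0.00997 (adjusted p = 1.22e-39; limma 0.0408). The 15-nt exon of ARHGEF10L stood at 0.972 and 1 in MCF10A against 0.383 and 0.425 in HMLE TWIST (limma adjusted p 0.0778), and MYO18A, an unconventional myosin, at 0.695 and 0.663 in MCF10A against 0.163 and 0.121 in HMLE TWIST (limma 0.0743). MACF1, given above, differed by -0.415 in level (limma 0.0914). The 9-nt exon of MTSS1L stood at 0.699 and 0.759 in MCF10A against 0.389 and 0.474 in HMLE TWIST (limma 0.154). ROBO3, ROBO1, GPBP1 and the 18-nt exon of RAPGEF2 differed by -0.376, -0.363, -0.332 and -0.331 in level, with adjusted p-values of the quasi-binomial model from 4.38e-12 to 0.0447 and of limma from 0.125 to 0.199.

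Higher in HMLE TWIST were KIF21A, at 0.0621 and 0.0516 in MCF10A and 0.789 and 0.785 in HMLE TWIST (adjusted p = 1.45e-10; limma 0.042), and TEAD1, at 0.243 and 0.0578 in MCF10A against 0.718 and 0.737 in HMLE TWIST (adjusted p = 5.65e-09; limma 0.122). CSNK1G3, a casein kinase, was at 0.0635 and 0.0829 in MCF10A against 0.599 and 0.682 in HMLE TWIST (limma 0.0655), and MARK3, a kinase that loosens microtubule-associated proteins, at 0.0509 and 0.053 in MCF10A against 0.481 and 0.476 in HMLE TWIST (limma 0.0655). NAV2 stood at 0.177 and 0.226 in MCF10A against 0.659 and 0.783 in HMLE TWIST. SLIT2, the ligand of ROBO receptors, had levels of 0.371 and 0.252 in MCF10A against 0.821 and 0.707 in HMLE TWIST for its 24-nt exon (limma 0.116), and ANXA6, an annexin, 0.413 and 0.402 in MCF10A against 0.765 and 0.781 in HMLE TWIST (limma 0.106). The deepest of these was RPS24, a ribosomal protein gene with a 22-nt exon in its 3′ untranslated region, at 0.0566 and 0.0449 in MCF10A against 0.398 and 0.413 in HMLE TWIST on at least 9115 reads a library (limma 0.0705). Called exons of 9 nt or fewer lay on both sides. NSFL1C, a cofactor of the p97 ATPase, stood at 0.0794 and 0.066 in MCF10A against 0.375 and 0.449 in HMLE TWIST, AP1B1 at 0.0497 and 0.0555 in MCF10A against 0.329 and 0.304 in HMLE TWIST, and PSAP, prosaposin, at 0.0506 and 0.0474 in MCF10A against 0.207 and 0.233 in HMLE TWIST. Their limma adjusted p-values were 0.0812, 0.0806 and 0.0987. MAP4K4 was higher by 0.188, while MYO5A and AP2M1 were lower, with differences of -0.245 and -0.113 (limma 0.172, 0.151 and 0.347).

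**Figure D5:**
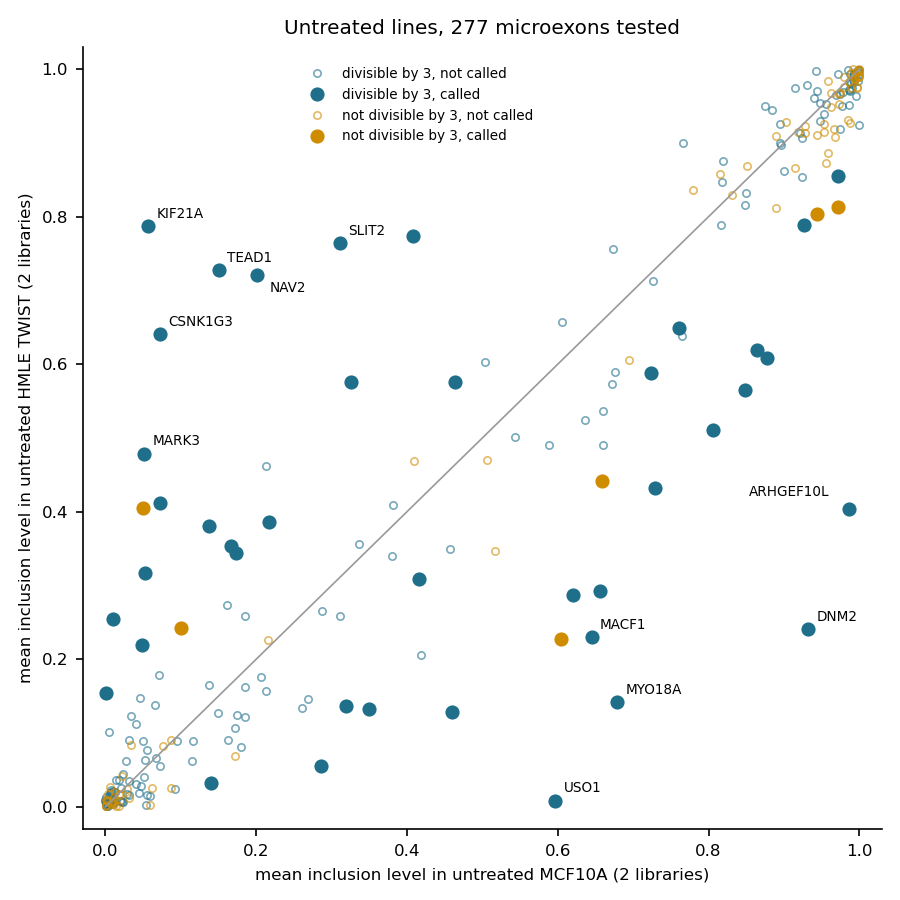
Mean inclusion level of 277 microexons in untreated MCF10A (x axis) and untreated HMLE TWIST (y axis), each a mean of 2 libraries, with filled points for called exons and colour for the frame; the line marks equal levels. The 20 called exons above the line and 26 below it are named where they differ by more than 0.4. Of these 46, 40 have a length divisible by 3, as do 188 of the 277 tested.

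A list of genes known to carry microexons of the neuronal and muscle programs was read separately. It was chosen with earlier results of these data known. In MCF10A 13 of its 44 tested microexons (29.5%) were called, 3 higher and 10 lower, beside 18.9% of the other microexons and 12.9% of all exons. In HMLE TWIST 15 of 45 (33.3%) were called, 6 higher and 9 lower, beside 18% and 13.8%, with median changes in the 2 lines of -0.00405 and 0.00567 beside -0.000264 and -0.00347 over all exons. Between the untreated lines 15 of 39 (38.5%) were called, 5 higher and 10 lower in HMLE TWIST, beside 13% of the other microexons and 6.04% of all exons. The 12 members of the list with the most reads were mostly near an end of the scale. The 15-nt exon of ERGIC3 and both AGRN exons, of 24 and 12 nt, were at most 0.017 in every library of both lines. PTK2, focal adhesion kinase, had its 9-nt exon at 0.0554 and 0.0644 in untreated MCF10A and 0.0157 and 0.0148 in untreated HMLE TWIST, and its 21-nt exon at most 0.0116. MEF2D, a transcription factor, had a 21-nt exon at 0.0463 and 0.0572 in untreated MCF10A and 0.0375 and 0.0431 in untreated HMLE TWIST. None of these 6 was called. The 18-nt exon of SPTAN1, alpha spectrin, was nearly always included, at 0.945 and 0.951 untreated and 0.985 and 0.982 under emetine in MCF10A, while its 15-nt exon fell there from 0.146 and 0.135 to 0.0149 and 0.0294 (adjusted p = 3.37e-06; limma 0.0271). ABI1, a subunit of the WAVE complex, had its 15-nt exon at 0.00151 and 0.00163 in untreated MCF10A, and in HMLE TWIST it fell from 0.169 and 0.139 to 0.0252 and 0.0286 (adjusted p = 0.000661; limma 0.0181).

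The genes of the known regulators were measured only through their own skipped exons, none of which was a microexon that could be tested. Of 27 listed regulators 19 had a tested exon in MCF10A and 17 in HMLE TWIST. In MCF10A 8 of 66 exons (12.1%) were called, 7 higher and 1 lower, in 6 genes, and in HMLE TWIST 11 of 70 (15.7%), 7 higher and 4 lower, in 10 genes, shares near the 12.9% and 13.8% of all exons. The 54-nt exon of MBNL1 rose from 0.574 and 0.62 to 0.895 and 0.912 in MCF10A and from 0.206 and 0.191 to 0.576 and 0.545 in HMLE TWIST (limma adjusted p 0.0215 and 0.0214). That of MBNL2 rose from 0.147 and 0.108 to 0.817 and 0.855 in MCF10A (limma 0.0145). In HMLE TWIST it went from 0.00909 and 0.106 to 0.143 and 0.157, a change called different between the lines (difference -0.616, quasi-binomial adjusted p = 0.0205, limma 0.417). A 34-nt exon of PTBP2, the neuronal relative of PTBP1, fell from 0.429 and 0.453 to 0.144 and 0.0788 in HMLE TWIST (limma 0.0258). A 117-nt exon of SRSF11 rose from 0.0943 and 0.0932 to 0.326 and 0.267 in MCF10A (limma 0.0362), and a 130-nt exon of SRRM1 from 0.111 and 0.115 to 0.491 and 0.59 (limma 0.0177). In HMLE TWIST SRRM1 rose from 0.0533 and 0.036 to 0.403 and 0.371 (limma 0.0122). The SRSF11 change was called different between the lines (difference -0.147, quasi-binomial adjusted p = 0.0226, limma 0.501). Of 74 regulator exons tested for such a difference 7 were called (9.46%), 3 higher and 4 lower, beside 1.62% of all exons. Levels of these proteins were not measured, and the part of these exons in the microexon changes was not tested.

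The authors' deposited table gave 115 microexon events of 108 exons in MCF10A at a false discovery rate under 0.05 and a difference of 0.1 or more in either direction. Under emetine 35 of these events were higher and 80 lower. In HMLE TWIST the authors' deposited table gave 132 events of 122 exons, 43 higher and 89 lower. Of these, 31 and 42 events had under 20 reads in a library and were not tested here. The authors' deposited false discovery rate was under 0.05 for 66 of the 67 microexons called here in MCF10A and for all 70 in HMLE TWIST. Both rest on the same reads, so this is no independent support. The share of all deposited events within these limits was not counted. Neither the number nor the balance of the authors' events can therefore be read as particular to microexons.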

How the data were processed

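The deposited tables of skipped-exon events, 1 for each line, are output of rMATS by their column layout. Per the submitters' processing notes the reads were aligned with STAR 2.5.3a, and GRCh37 is the build named there. In each cell the authors give the junction read counts of both libraries of a group as a pair of values, next to effective lengths, p-values, a false discovery rate and inclusion scores. The table's name gives the order of its samples, by which the first was read as DMSO and the other as emetine. The values of a pair carry no replicate number and were taken in listed order. All counts were used as deposited.

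From these counts the inclusion level was recomputed, with an effective length of 99 for skipping and of 98 plus the exon length for inclusion. Where an exon had several events, 1 event stood for it. Inclusion against skipping reads were fitted with a quasi-binomial logistic model (Python 3.11.15, numpy 2.4.6). Its dispersions were moderated across all events with limma 3.58.1 in R 4.3.3 and held at 1 or more. P-values were adjusted by the Benjamini-Hochberg method over all events fitted, and limma on log2 odds, with 0.5 added to each count, was the second test. The difference between lines in the change was a term in a fit of all 8 libraries. The procedure was tested on simulated data. Members, gene lists and tests were chosen with earlier results of these data known.

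The exons named are, among called members, the 8 largest rises and the 8 largest falls per emetine comparison, the 10 highest and 10 lowest between untreated lines, the 6 largest differences of changes, the 8 with the largest smaller change in both lines and those up to 9 nt, with the 12 deepest of the microexon program list. RAPGEF6 and DNM1 were added for their sequence, the regulators' exons after their values were seen. Positions and sequences come from GENCODE 29, where 49 of 876 members found no match. The dispersion shared by all events was added after the data were seen.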

Additional observations from a re-analysis of the deposited data

Results flagged for a closer look

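For 13 microexons the change under emetine differed between the lines, by the term for line by treatment of the quasi-binomial model. Values are the change in HMLE TWIST minus the change in MCF10A, as inclusion levels. They were -0.819 for NAV2, -0.151 for AP1B1, -0.130 for ABI1 and -0.122 for NSFL1C. The median level of these 4 in untreated MCF10A was 0.0627, which leaves little room to fall there, and that of the other 9 was 0.878. The part of the starting level in the differences was not tested. The difference was 0.109 for AP2M1, 0.141 for TRIM41, 0.173 for PICALM, 0.173 for CLASP1 and 0.174 for UCKL1. It was 0.189 for DIAPH1, 0.192 for DNM2, 0.289 for ROBO3 and 0.491 for RAPGEF2. NAV2 and ROBO3 were called in both lines with opposite signs. limma's adjusted p was 0.197 or higher for each of the 13.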

How the results depend on the processing

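The planned edgeR fit was not run. Main counts of called microexons were 67 in MCF10A (50 divisible by 3, 17 not), 70 in HMLE TWIST (55 and 15), 46 between untreated lines and 13 for line by emetine. limma gave 35, 37, 4 and 0, with 22 and 25 for members divisible by 3 and 13 and 12 for the others, so that in MCF10A the share was higher in the latter. With a minimum change of 0.2 the counts were 33 (24 and 9), 41 (35 and 6), 30 and 3. For exons of 21 nt or fewer they were 34 (27 and 7), 39 (33 and 6), 29 and 7, which holds fewer exons, and for 30 nt or fewer 27 in HMLE TWIST not divisible by 3. The event's own dispersion gave 7 for line by emetine. Without the minimum of the rarer form the untreated lines gave 0, with 40 at an unadjusted p under 0.05 and a change of at least 0.1, and 46 with 1 shared dispersion.

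Leaving out 1 replicate gave 0 to 54 in MCF10A (0 to 41 divisible by 3, 0 to 13 not), 0 to 61 in HMLE TWIST (0 to 47, 0 to 14), 28 to 36 between untreated lines and 4 to 9 for line by emetine. The counts of 0 came with an emetine library left out. With 1 shared dispersion, added after the data were seen, these ranges were 53 to 64 (40 to 51, 13 to 17), 59 to 74 (44 to 57, 15 to 18), 36 to 37 and 9 to 15. The numbers of the libraries do not pair them: deviations correlated by 0.0140 in MCF10A and 0.00661 in HMLE TWIST. With the replicate block all 4 counts, and those by frame, were 0, with 46, 44, 47 and 14 at an unadjusted p under 0.05 and a change of at least 0.1, and 67, 71, 43 and 13 with 1 shared dispersion. In each of these fits where it was tested, every microexon called in the main comparison kept its sign. Fits on all libraries take the change from the same levels, so there the sign could not differ. With a library left out, a kept sign is likely beforehand for exons chosen by a change of at least 0.1. The kept signs thus add no support. Under 20 reads, levels were not analysed, so depth limits 145 microexons in MCF10A and 158 in HMLE TWIST.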
